A study of Homo sapiens with 24 samples.

Results

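The MYC, MAX and MXD network is a family of transcription factors that compete for a shared partner and for shared DNA sites, and its members were followed here at the RNA level in a colon cancer cell line. The members were the 10 genes MYC, MYCL1, MYCN, MAX, MXD1, MXD3, MXD4, MXI1, MNT and MGA. All probes that were no array controls and that carried any of these gene names were taken, which gave 20 of the 34127 probes of the array. Of these 20 probes, 16 from 9 genes were tested, among 18966 probes in all, since at least 1 treatment had them well above background on each of its 6 arrays. The 4 probes that were not tested were the only MYCN probe and the second probes of MYCL1 (a gene now named MYCL), MXD3 and MGA.

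MYC and its relatives MYCL1 and MYCN bind DNA as heterodimers with MAX, mostly at E-boxes, and raise transcription of genes for ribosome assembly, nucleotide synthesis and the cell cycle. MXD1, MXI1, MXD3, MXD4 and MNT pair with the same MAX and bind the same sites, where they recruit SIN3 and histone deacetylases and lower transcription. MGA is a large MAX partner found in a complex with E2F6 and Polycomb proteins. In colon cancer cells MYC is a known target of the Wnt pathway, through beta-catenin and Tcf factors. MXD1 and MXD4 are known as genes of differentiating cells that have left the cell cycle.

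The cells were HCT-116, a human colorectal cancer line, and all 4 treatments used the same transfected cells. These carried a Tet repressor and a doxycycline-inducible DN-Tcf4, a form of the Wnt pathway factor Tcf4 that lacks the part that binds beta-catenin, and the methods describe them as 1 selected clone, so results from other clones cannot be read from them. The groups were control cells given neither agent (Ctl, which the labels call untreated and mock-treated), cells with 5 mM sodium butyrate (NaB), cells with 4 μg/ml doxycycline (Doxy) and cells with both agents (DoxyNaB). The labels give 17.5 hr for treatment, while the methods place doxycycline first and then count 17.5 hr of joint treatment, so the length of doxycycline exposure may be longer. Butyrate is a short fatty acid made by gut bacteria that inhibits histone deacetylases. Each treatment was run in 6 experiments, 1 array per treatment and experiment, which gave 24 one-colour arrays, and groups were compared within experiments. The comparisons asked what butyrate did without doxycycline (NaB/Ctl) and with it (DoxyNaB/Doxy), what doxycycline did with butyrate (DoxyNaB/NaB) and without it (Doxy/Ctl), and whether the butyrate response itself differed between cells without and with doxycycline (NaB/Ctl minus DoxyNaB/Doxy, called the interaction). RNA came from whole cultures, so less of an RNA in every cell and fewer cells that hold it cannot be told apart.

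The RefSeq promoter table for GRCh38 held entries for 9 of the 10 members, and MYC had none. The 250 bases upstream of each start were searched on both strands for the E-box CACGTG, the Tcf motif CTTTGAT and the GC box GGGCGG, and no match overlapped that of another motif in the member windows. Over all 35116 promoter windows of this length, 6.34% held the E-box, 2.26% held CTTTGAT and 42.6% held the GC box. The E-box was found in the windows of MXD4 and MNT, 1 in each, and CTTTGAT in none of the member windows. The upstream windows of MXD1 and MXD4, the members with the largest butyrate responses, are shown with the E-box and the GC box, the latter on either strand, in capitals. The MXD1 window is chr2:69914859-69915108 on the plus strand and the MXD4 window is chr4:2262110-2262359 on the minus strand.
MXD1: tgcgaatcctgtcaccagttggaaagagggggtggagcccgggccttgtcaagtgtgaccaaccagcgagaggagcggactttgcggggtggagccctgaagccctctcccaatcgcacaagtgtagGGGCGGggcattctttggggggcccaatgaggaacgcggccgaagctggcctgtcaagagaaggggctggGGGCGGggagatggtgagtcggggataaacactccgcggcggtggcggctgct
MXD4: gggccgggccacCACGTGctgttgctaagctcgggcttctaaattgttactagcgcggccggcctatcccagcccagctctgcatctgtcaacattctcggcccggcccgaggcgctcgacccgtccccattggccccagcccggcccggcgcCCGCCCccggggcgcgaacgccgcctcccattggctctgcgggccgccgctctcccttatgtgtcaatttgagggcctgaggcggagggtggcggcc
The MXD1 window held 2 GC boxes, at bases −123 and −53 from the start, and no E-box. The MXD4 window held its E-box at −238 and 1 GC box at −97. These matches describe the windows and say nothing about binding in these cells.

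A level below is the log2 signal of a probe relative to the 75th percentile of its array, so that 0 is the 75th percentile and a difference of 1 is a 2-fold change. Levels of different probes were not set against each other. The 75th percentile signal ranged from 380.178 to 1322.74 and the share of spots well above background from 52.5 to 88.1% over the arrays. In experiment 1 butyrate cannot be told apart from slide or scan date. Its arrays without butyrate and those with it lay on separate slides and were scanned on different dates (scans 1 and 2). In experiments 2 to 6 all 4 treatments of an experiment shared a slide and a scan date. TCF7L2, the gene of Tcf4, was read first as a check of the labels. Its probe A_23_P389588, well above background on all arrays, lay between 0.54 and 1.92 in DoxyNaB and between −2.75 and −0.29 in NaB, a difference of 2.96 (limma adjusted p = 3.68e-05), and Doxy and Ctl differed by −0.17 (adjusted p = 0.921). Array signal cannot tell RNA of the gene from RNA of the construct. A second TCF7L2 probe, A_23_P127013, was well above background on 6 of 6 arrays in DoxyNaB and on 1, 3 and 3 of 6 in Ctl, NaB and Doxy, and another, A_33_P3377304, fell by 1.25 in DoxyNaB/NaB (adjusted p = 0.00567). Of 7 epithelial marker genes, 5 or 6 were well above background on all 6 arrays of each group, with a summed linear signal between 212 and 505 times the 75th percentile of the array. The summed signals of the fibroblast, leukocyte and endothelial markers were at most 0.524, 0.389 and 0.236 in Ctl, 1.09, 0.957 and 0.762 in NaB, 0.525, 0.351 and 0.574 in Doxy, and 1.36, 1.07 and 1.14 in DoxyNaB, and their part in the results was not tested.

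Butyrate was followed by lower MYC and by higher MXD1 and MXD4, in the absence and in the presence of doxycycline, and MAX rose on 2 of its 3 probes. In NaB/Ctl, 10 of the 16 member probes rose and 2 fell at a limma adjusted p under 0.01, where 68.2% of all tested probes passed, 40.1% as higher and 28.2% as lower. In DoxyNaB/Doxy, 6 of 16 rose and 3 fell, against 67% of all tested probes, 37.3% as higher and 29.7% as lower. The members that passed were 12 of 16 and 9 of 16, near the share of all probes in each case. More than 2-fold changes were found for 5 member probes in NaB/Ctl, all higher, where 31.7% of all tested probes passed both limits and 20.7% did so as higher, and for 5 in DoxyNaB/Doxy, 4 higher and 1 lower, against 30.6% of all tested probes (18.3% higher and 12.3% lower). The median change of the 16 probes was 0.46 in NaB/Ctl and 0.13 in DoxyNaB/Doxy, against 0.17 and 0.10 over all tested probes. Of the probes over 2-fold, MXD1 A_23_P408094 and MXD4 A_23_P423695 passed the filter only through butyrate groups, where they are high, and without them 3 remain in NaB/Ctl and 3 in DoxyNaB/Doxy. Among the 12 member probes well above background on all 24 arrays, 8 rose and 2 fell in NaB/Ctl, and 4 rose and 3 fell in DoxyNaB/Doxy. The share over the 14516 probes of the array that were so was not taken, so no reading is drawn from these counts. Several of the 16 probes belong to the same gene and are not independent of each other. The split by direction depended on the scaling between arrays. Setting a floor of 5 and scaling each array to its median moved the median change of all tested probes in NaB/Ctl from 0.17 to −0.58, and then 4 member probes passed as higher and 5 as lower, and in DoxyNaB/Doxy 4 and 4. With quantile normalization the NaB/Ctl split was 9 and 3, and with normexp background correction it was 7 and 1. Of all 18966 tested probes, 12943 passed in NaB/Ctl in the main fit, 11180 with median scaling, 11764 with quantile normalization and 8309 with normexp. In DoxyNaB/Doxy 12715 passed in the main fit and 10231 with median scaling.

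**Figure D1:**
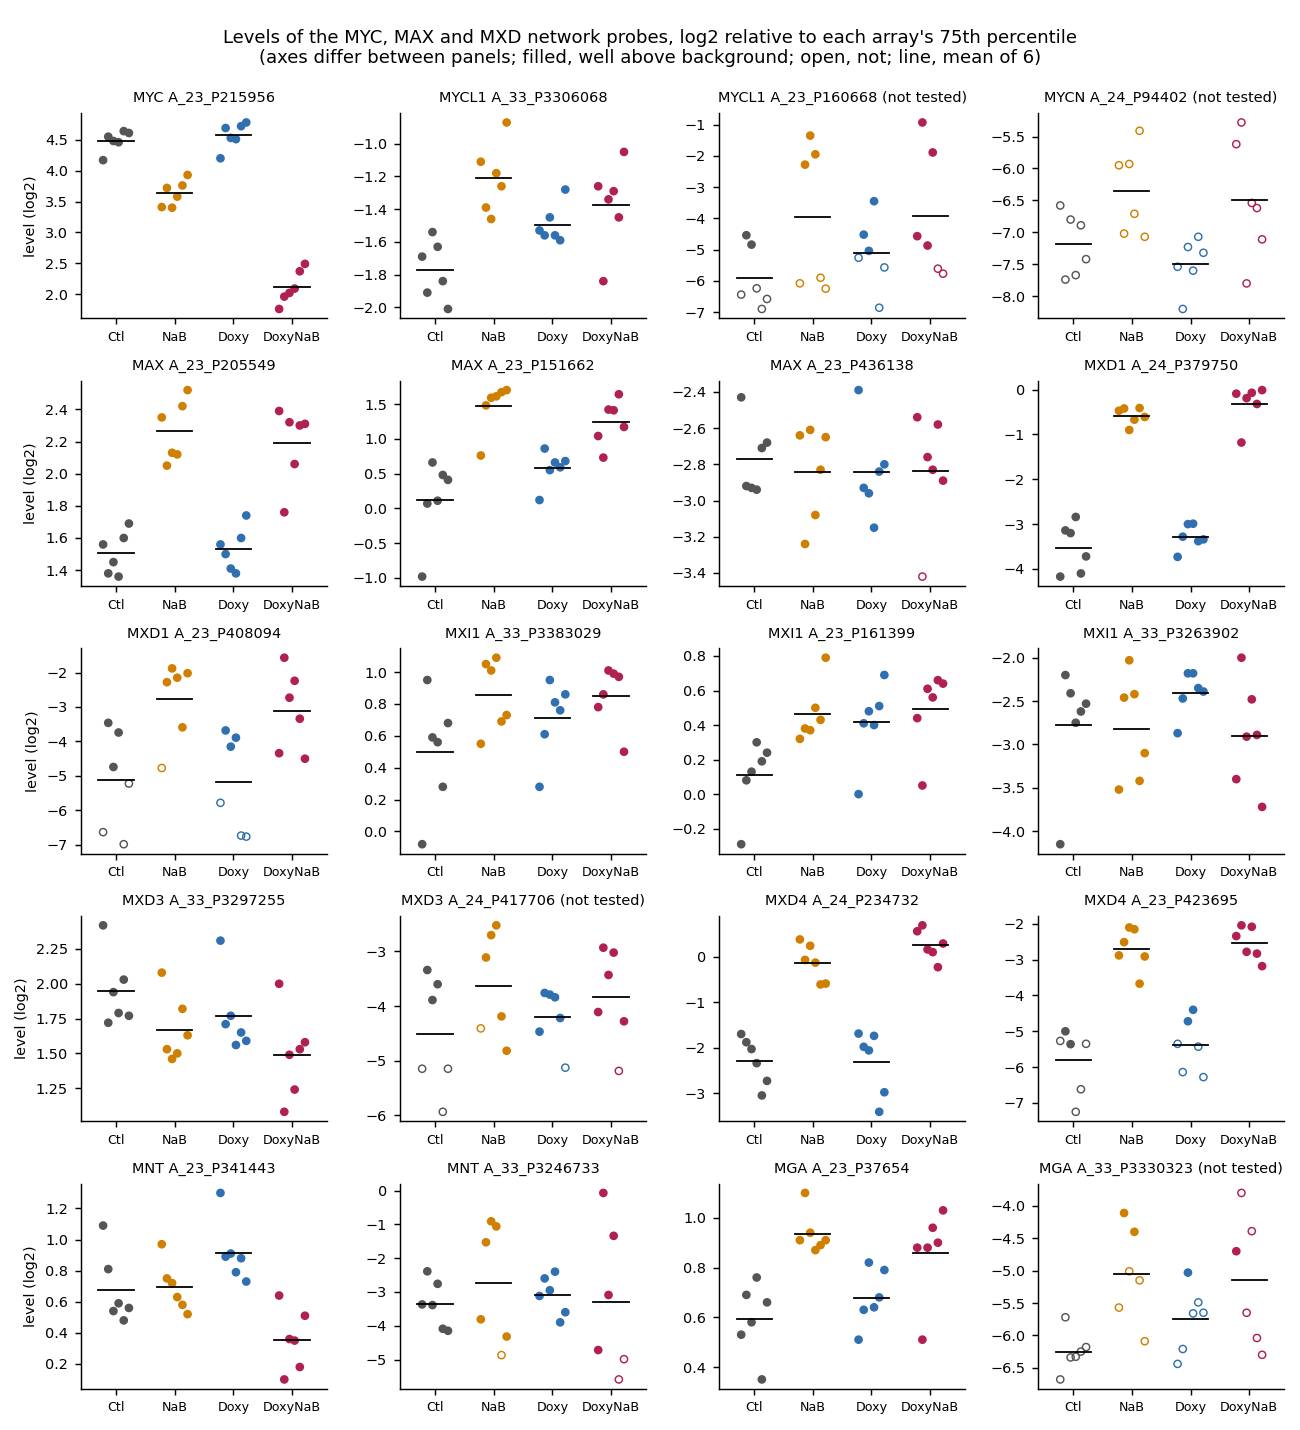
Levels of all 20 member probes on the 24 arrays, 1 panel per probe. The vertical axis of each panel is the log2 level relative to the 75th percentile of the array, with a range of its own, each point is 1 array (filled where well above background, open where not), colours mark Ctl, NaB, Doxy and DoxyNaB, and the line is the mean of 6. MYC in DoxyNaB lies between 1.76 and 2.49, below all other groups, and MXD1 A_24_P379750 and MXD4 A_24_P234732 lie higher in both butyrate groups.

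MYC, the oncogenic activator of the network, fell with butyrate, and it fell further where doxycycline was also present. Its only probe, A_23_P215956, lies on chromosome 8, was printed in 10 spots per array and was well above background on all 24 arrays. In experiments 1 to 6 its level in Ctl was 4.17, 4.55, 4.48, 4.46, 4.64 and 4.61. In NaB it was 3.41, 3.72, 3.40, 3.58, 3.76 and 3.93, so that every NaB array lay below every Ctl array. In Doxy it was 4.20, 4.69, 4.53, 4.51, 4.72 and 4.78, which overlapped the Ctl range. In DoxyNaB it was 1.76, 1.96, 2.02, 2.09, 2.37 and 2.49. The DoxyNaB arrays thus lay below those of the other treatments with no overlap.

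Butyrate alone lowered MYC by 0.85 ± 0.13 in log2 units, a 1.81-fold fall with the SD taken over the 6 experiments (limma adjusted p = 7.84e-10, lower in 6 of 6 experiments, 95% interval −0.98 to −0.72). In the presence of doxycycline the butyrate difference was −2.45 ± 0.15, a 5.48-fold fall (adjusted p = 1.16e-15, 6 of 6, interval −2.59 to −2.32). MYC therefore moved in the same direction in both butyrate comparisons and further in the second. Relative to the median change of all tested probes, the 2 differences were −1.02 and −2.56. Median scaling gives the same values by construction, since both scalings shift all probes of an array alike. With normexp background correction they were −0.82 and −2.71, and with quantile normalization −0.57 and −2.22. Over 21 alternative settings MYC passed in all 21 in both comparisons, with values from −1.60 to −0.62 and from −3.01 to −2.28.

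The doxycycline difference of MYC passed in the presence of butyrate and not in its absence. DoxyNaB differed from NaB by −1.52 ± 0.15 in log2 units, a 2.86-fold fall (adjusted p = 7.92e-11, 6 of 6, interval −1.65 to −1.39), and MYC was the only one of the 16 member probes to pass in DoxyNaB/NaB, where 2.48% of all tested probes passed, 1.87% as lower. Within scan 4, which holds experiments 5 and 6, the MYC difference was −1.41 and did not pass (adjusted p = 0.0169). Doxy and Ctl differed by 0.08 ± 0.06 (adjusted p = 0.659, interval −0.05 to 0.22), although Doxy was the higher of the pair in 6 of 6 experiments. The interaction was 1.60 ± 0.17 (adjusted p = 2.13e-08, interval 1.41 to 1.79) and lay between 1.43 and 1.89 in the single experiments, so the butyrate difference of MYC was itself different without and with doxycycline. The MYC interaction stayed between 1.41 and 1.77 over 20 alternatives and passed in 17 of them. It did not pass with median scaling (adjusted p = 0.12), with the methods' t-test after Benjamini-Hochberg adjustment (0.0239) or within scan 4 alone (0.0554). The study reports little DN-Tcf4 protein with doxycycline alone and much of it with both agents. DoxyNaB and Doxy thus also differ in DN-Tcf4, and the interaction does not compare butyrate responses at equal DN-Tcf4. All cells carried the construct, so doxycycline itself and DN-Tcf4 cannot be told apart.

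**Figure D2:**
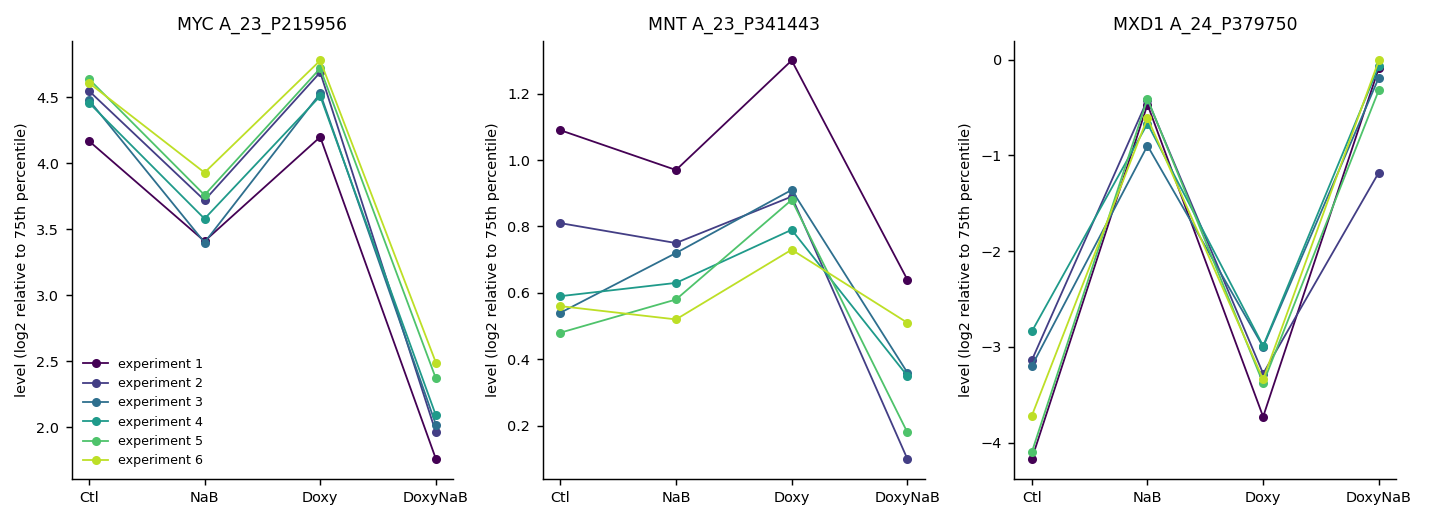
Levels of MYC (A_23_P215956), MNT (A_23_P341443) and MXD1 (A_24_P379750) in each experiment. The horizontal axis lists Ctl, NaB, Doxy and DoxyNaB, the vertical axis is the log2 level relative to the 75th percentile of the array, and each line joins the 4 arrays of 1 experiment. In all 6 experiments MYC was lower in DoxyNaB than in NaB, with differences from −1.76 to −1.38.

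The other MYC genes, MYCL1 and MYCN, had 1 tested probe between them. MYCL1, which pairs with MAX as MYC does, was read with probe A_33_P3306068 on chr1:40133707-40133766 (minus strand, NCBI36, the build of the probe annotation). Its level had a low of −2.01, a median of −1.76 and a high of −1.54 in Ctl, and −1.46, −1.22 and −0.87 in NaB, with no overlap. The NaB/Ctl difference was 0.56 ± 0.34 (limma adjusted p = 7.83e-05, higher in 6 of 6), but −0.19 with median scaling. Relative to the median of all probes it was 0.39, the same in both scalings by construction. With normexp that value was 0.19 and with quantile normalization 0.11. The NaB/Ctl difference passed in 15 of 21 alternatives. DoxyNaB had −1.84, −1.32 and −1.05 against −1.59, −1.54 and −1.28 in Doxy, which overlapped, with a difference of 0.12 (adjusted p = 0.293). The second MYCL1 probe was well above background on 2 to 4 arrays of each group. The MYCN probe, on chr2:16004218-16004277 (plus strand), was not well above background on any of the 24 arrays, with readings from −8.20 to −5.28.

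MAX, the shared partner of the other members, was read by 3 probes that the probe annotation pairs with different sets of RefSeq transcripts, and the probes differed. Probe A_23_P205549 (chr14:64611756-64611815, minus strand) had a low of 1.36, a median of 1.51 and a high of 1.69 in Ctl and 2.05, 2.24 and 2.52 in NaB. It had 1.38, 1.53 and 1.74 in Doxy and 1.76, 2.31 and 2.39 in DoxyNaB, so that no butyrate array overlapped its comparison group. The differences were 0.76 ± 0.07 in NaB/Ctl (adjusted p = 1.08e-08) and 0.66 ± 0.23 in DoxyNaB/Doxy (adjusted p = 7.46e-08), and they shrank to 0.01 and 0.10 with median scaling, where they did not pass. Relative to the median of all probes this MAX probe rose by 0.59 and 0.56, the same in both scalings by construction. With normexp these values were 0.68 and 0.40, and with quantile normalization 1.02 and 0.93.

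Probe A_23_P151662 of MAX (chr14:64630212-64630271) had −0.98, 0.26 and 0.66 as the lowest, median and highest level in Ctl and 0.76, 1.60 and 1.70 in NaB. The values were 0.12, 0.62 and 0.86 in Doxy and 0.73, 1.29 and 1.64 in DoxyNaB, which overlapped. Its differences were 1.34 ± 0.28 (adjusted p = 2.46e-07, 6 of 6) and 0.66 ± 0.43 (adjusted p = 0.00072, 5 of 6), and the interaction of 0.68 ± 0.54 had an adjusted p of 0.136 although it was above 0 in 6 of 6 experiments. The DoxyNaB/Doxy rise passed in 14 of 20 alternatives. Probe A_23_P436138 of MAX (chr14:64620587-64620646) stayed between −3.42 and −2.39 on all arrays. Its differences of −0.08 (adjusted p = 0.479, interval −0.28 to 0.13) and 0.01 (adjusted p = 0.934, interval −0.19 to 0.21) did not pass, but with quantile normalization the first was −1.27 and the second −0.77.

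MXD1, a MAX-binding repressor, showed a large rise with butyrate. Probe A_24_P379750 (chr2:70023388-70023447, plus strand) had a lowest, median and highest level of −4.17, −3.46 and −2.84 in Ctl. In NaB these were −0.90, −0.54 and −0.41, above all Ctl arrays. They were −3.73, −3.31 and −2.99 in Doxy and −1.18, −0.14 and −0.01 in DoxyNaB, again with no overlap. MXD1 rose by 2.95 ± 0.67 in NaB/Ctl, or 7.74-fold (adjusted p = 8.42e-10, 6 of 6), and by 2.98 ± 0.52 in DoxyNaB/Doxy, or 7.87-fold (adjusted p = 7.62e-10, 6 of 6). The interaction was −0.02 ± 0.58 (adjusted p = 0.985) with an interval from −0.68 to 0.63, so a difference in response within that interval could not be told from 0. With normexp background correction, which lifts low signals, the rises were 1.75 and 2.09 and still passed.

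The second MXD1 probe, A_23_P408094, matches chr2:69996030-69996806, a span of 777 bases that crosses an intron, and was much closer to background. It was well above background on 3 of 6 arrays in Ctl and in Doxy, on 5 in NaB and on 6 in DoxyNaB. Its lowest, median and highest readings were −6.98, −4.98 and −3.46 in Ctl and −4.77, −2.21 and −1.88 in NaB, which overlapped. Since this probe passed the filter only through DoxyNaB, where it is high, its differences of 2.35 ± 0.92 and 2.04 ± 0.75 are given with no test, and with normexp they were 0.60 and 0.93.

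MXD4, another repressor of this kind, also rose with butyrate. Probe A_24_P234732 (chr4:2219557-2219616, minus strand) had a lowest, median and highest level of −3.05, −2.19 and −1.70 in Ctl and −0.61, −0.10 and 0.38 in NaB. The levels were −3.41, −2.02 and −1.69 in Doxy and −0.23, 0.22 and 0.69 in DoxyNaB. Every butyrate array lay above every array without it. The rises were 2.16 ± 0.21, or 4.47-fold (adjusted p = 3.72e-10), and 2.57 ± 0.57, or 5.96-fold (adjusted p = 3.22e-11), and over 21 alternatives MXD4 and MXD1 A_24_P379750 each passed in all 21 in both comparisons. With normexp background correction the rises of this MXD4 probe were 1.33 and 1.87. The MXD4 interaction of −0.42 ± 0.58 did not pass (adjusted p = 0.466), and neither did DoxyNaB/NaB (0.39, adjusted p = 0.189).

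The other MXD4 probe, A_23_P423695 (chr4:2221078-2221137), was well above background on 2 of 6 arrays in Ctl and in Doxy and on 6 of 6 in both butyrate groups. Its readings had a median of −5.35 in Ctl, −2.69 in NaB, −5.39 in Doxy and −2.56 in DoxyNaB. It too passed the filter only through the groups where it is high, so its differences of 3.1 ± 1.04 and 2.84 ± 0.75 are given with no test, and with normexp they were 0.88 and 1.30.

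MXI1, also a MAX-binding repressor, moved little and not on all probes. Probe A_23_P161399 (chr10:112035935-112035991, plus strand) had a lowest, median and highest level of −0.29, 0.16 and 0.30 in Ctl and 0.32, 0.41 and 0.79 in NaB. The values were 0.00, 0.44 and 0.69 in Doxy and 0.05, 0.58 and 0.66 in DoxyNaB, so only the first pair did not overlap. The NaB/Ctl difference was 0.36 ± 0.18 (adjusted p = 0.00112) and the DoxyNaB/Doxy difference 0.08 (adjusted p = 0.409). Probe A_33_P3383029 of MXI1 (chr10:112034737-112034796) differed by 0.36 ± 0.23 in NaB/Ctl (adjusted p = 0.00897) and passed in only 6 of 21 alternatives. Both of these MXI1 rises were −0.39 with median scaling. The remaining MXI1 probe, A_33_P3263902 (chr10:111975971-111976030), differed by −0.05 (adjusted p = 0.848) and −0.49 (adjusted p = 0.0513). With quantile normalization these differences were −1.07 and −1.24, and the probe passed in 2 of 20 alternatives in each comparison.

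MXD3, the repressor of this group known from proliferating cells, fell slightly on its tested probe. The tested probe A_33_P3297255 (chr5:176666822-176666881, minus strand) had a lowest, median and highest level of 1.72, 1.87 and 2.42 in Ctl and 1.46, 1.58 and 2.08 in NaB. The values were 1.56, 1.68 and 2.31 in Doxy and 1.08, 1.51 and 2.00 in DoxyNaB. The groups overlapped, but within experiments MXD3 was lower with butyrate in 6 of 6 pairs in both comparisons, with differences of −0.27 ± 0.12 (adjusted p = 0.00231) and −0.28 ± 0.21 (adjusted p = 0.00202). It passed in 13 of 21 alternatives in each. The second MXD3 probe, well above background on 3 arrays in Ctl and on 5 in each other group, was not tested and ran the other way, by 0.89 ± 0.57 in NaB/Ctl (higher in 6 of 6) and 0.37 ± 0.7 in DoxyNaB/Doxy (higher in 5 of 6).

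MNT, a widely expressed MAX partner that opposes MYC, was the other member whose butyrate difference itself differed between the conditions without and with doxycycline. Probe A_23_P341443 (chr17:2234326-2234385, minus strand) had a lowest, median and highest level of 0.48, 0.57 and 1.09 in Ctl and 0.52, 0.68 and 0.97 in NaB, which overlapped. It had 0.73, 0.89 and 1.30 in Doxy and 0.10, 0.35 and 0.64 in DoxyNaB, with no overlap. The NaB/Ctl difference was 0.02 ± 0.11 (adjusted p = 0.826, interval −0.14 to 0.17), but −0.73 with median scaling. The DoxyNaB/Doxy difference was −0.56 ± 0.21, a 1.47-fold fall (adjusted p = 1.98e-06, 6 of 6), and it kept its direction over 21 alternatives, from −1.12 to −0.46, passing in 20 of them.

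The MNT interaction was 0.58 ± 0.23 (adjusted p = 0.00383, above 0 in 6 of 6 experiments), and it was less secure than that of MYC. It passed in 8 of 20 alternatives, and without experiment 1, 3, 4 or 5 its adjusted p was 0.0229, 0.0373, 0.0279 or 0.0548. Without the experiment as a block the adjusted p was 0.185, and within scan 3 (experiments 2 to 4) and scan 4 the MNT interaction was 0.65 and 0.49, neither of which passed. Its 2 components were each short of the threshold, with −0.34 ± 0.21 in DoxyNaB/NaB (adjusted p = 0.011, 6 of 6) and 0.24 ± 0.12 in Doxy/Ctl (adjusted p = 0.136, 6 of 6). The second MNT probe, A_33_P3246733 (chr17:2236382-2236441), had a wide spread, from −5.59 to −0.07 in DoxyNaB, and passed in no comparison.

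MGA, the large MAX partner, was read with probe A_23_P37654 (chr15:39849147-39849206, plus strand). Its lowest, median and highest levels were 0.35, 0.62 and 0.76 in Ctl and 0.87, 0.91 and 1.10 in NaB, with no overlap. They were 0.51, 0.66 and 0.82 in Doxy and 0.51, 0.89 and 1.03 in DoxyNaB, which overlapped. The differences were 0.34 ± 0.15 (adjusted p = 0.00144) and 0.18 (adjusted p = 0.0641), and the first was −0.41 with median scaling and 0.17 relative to the median of all probes. It passed in 16 of 21 alternatives. The second MGA probe was not well above background on any Ctl array and was so on 2 of 6 in NaB and on 1 of 6 in Doxy and in DoxyNaB.

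**Figure D3:**
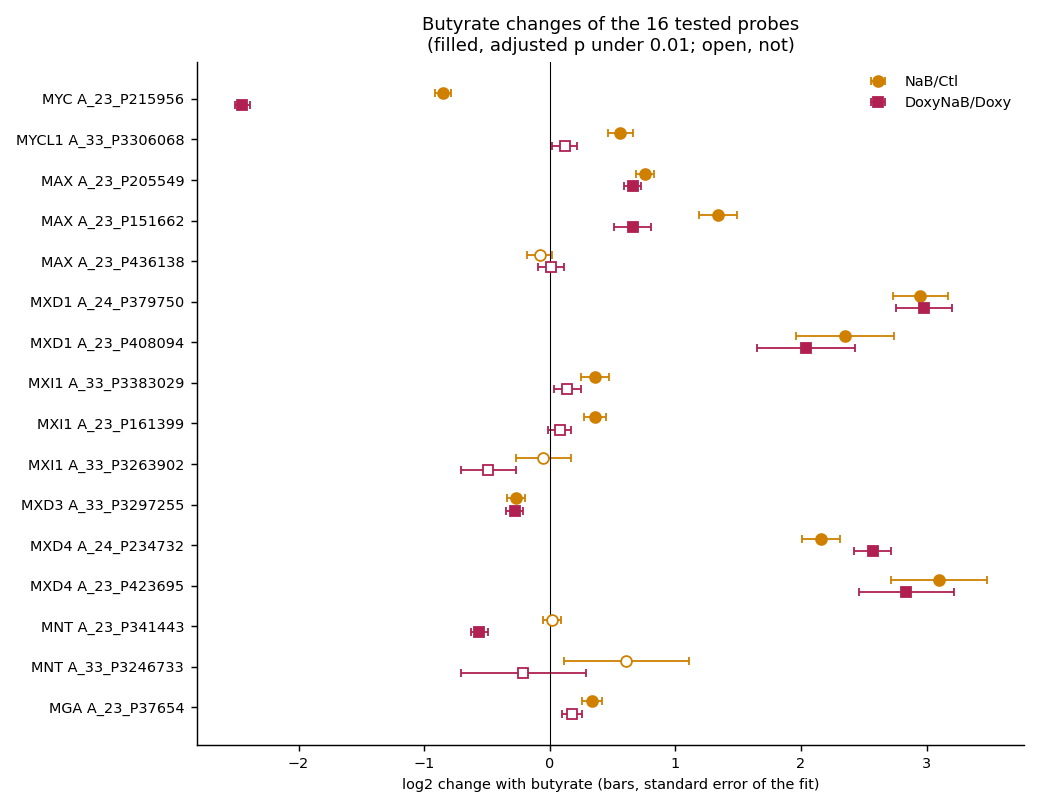
Butyrate differences of the 16 tested member probes. The horizontal axis is the log2 difference, circles are NaB/Ctl and squares DoxyNaB/Doxy, filled at an adjusted p under 0.01 and open otherwise, and bars are the standard error of the limma fit. The 2 differences stand apart for MYC (−0.85 and −2.45) and for MNT A_23_P341443 (0.02 and −0.56), and those of MXD1 A_24_P379750 lie close together (2.95 and 2.98). MXD1 A_23_P408094 and MXD4 A_23_P423695, also drawn filled, passed the filter only through butyrate groups, where they are high.

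Set side by side, the groups did not overlap at all for 9 of the 16 member probes in NaB/Ctl, against 43.1% of all tested probes, and for 6 in DoxyNaB/Doxy, against 41.5%. MXD4 A_23_P423695 is counted in both, and it passed the filter only through the butyrate groups, where it is high. The 2 butyrate comparisons use different arrays, while each doxycycline comparison shares its arrays with them. In DoxyNaB/NaB 1 of 16 did not overlap, which was MYC, against 1.67% of all tested probes. In Doxy/Ctl none of the 16 passed by limma, where 0.501% of all tested probes did, and none was without overlap, against 0.949%. The lowest limma adjusted p in Doxy/Ctl was 0.102, for MXI1 A_23_P161399. There, 5 member probes had an unadjusted p under 0.05, and the methods' t-test without adjustment called 2, MXI1 A_23_P161399 and MNT A_23_P341443. The share of all tested probes under these unadjusted rules was not taken, so no reading is drawn from these counts. The median Doxy/Ctl difference of the 16 was 0.23 against 0.02 over all tested probes. The interaction passed for 2 of 16, MYC and MNT, where 1.24% of all tested probes did, 1.03% as higher, and MYC was the one of the pair over 2-fold, where 0.395% of all tested probes were.

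Genes around the network were read from lists with 1 probe per gene, that of the highest mean level. The lists were chosen with earlier results of these data known, so their counts describe the genes listed and are no independent evidence. Over the 15146 genes tested, 40.6% rose and 29.0% fell in NaB/Ctl with a median of 0.17, and 38.1% rose and 30.3% fell in DoxyNaB/Doxy with a median of 0.11. Of 47 tested genes known to be raised by MYC, 2 rose and 38 fell in NaB/Ctl, with a median of −1.08, and 2 rose and 40 fell in DoxyNaB/Doxy, with a median of −1.15. The ones with the largest falls were CDC25A, a phosphatase that drives cell cycle entry (−2.62 and −2.48), RCC1, the exchange factor of Ran (−2.31 and −2.56), and CTPS1, a CTP synthase (−2.19 and −1.96), all with adjusted p of 9.48e-12 or lower. The 2 that rose in both were ODC1, the rate-limiting enzyme of polyamine synthesis (1.75 and 1.84), and TFRC, the transferrin receptor (0.94 and 1.49). Under the 4 other scalings between 35 and 45 of the 47 fell in NaB/Ctl and between 38 and 43 in DoxyNaB/Doxy.

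In DoxyNaB/NaB 3 of the 47 genes known to be raised by MYC fell (6.38%) and 1 rose (2.13%), against 2.03% and 0.687% of all genes. MYBBP1A fell (−0.48, limma adjusted p = 0.000893), as did the ribosome assembly factors PPAN (−0.46, adjusted p = 0.00144) and RRS1 (−0.32, adjusted p = 0.00374). TFRC rose (0.47, adjusted p = 0.00756). The median of the 47 was −0.12 in DoxyNaB/NaB against −0.03 over all genes. By the methods' t-test after adjustment 0 of the 47 passed in DoxyNaB/NaB, and 11 had an unadjusted limma p under 0.05. Neither limma nor the adjusted methods' t-test called any of the 47 in Doxy/Ctl, where 4 had an unadjusted p under 0.05, or in the interaction, where 6 did. No share over all genes was taken for these unadjusted counts, so they have no background here.

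Of 13 tested genes known to be lowered by MYC, 9 rose and 1 fell in NaB/Ctl (median 1.47) and 10 rose and 2 fell in DoxyNaB/Doxy (median 1.10), and with median scaling 6 rose and 3 fell and then 6 rose and 2 fell. With normexp 7 rose and 1 fell (median 0.66) and then 9 rose and 2 fell (median 0.86), against medians of 0.08 and 0.19 over all genes. Whether genes of these lists passed the filter only through butyrate groups was not checked. THBS1, an inhibitor of angiogenesis, rose by 3.94 and 3.73, and CDKN1C, the cell cycle inhibitor p57, by 3.33 and 3.28. CDKN1B, the inhibitor p27, fell by 0.93 in NaB/Ctl (adjusted p = 3.74e-08). DDIT3, a stress-response factor, was the 1 gene of this list to rise by limma in DoxyNaB/NaB (1.58, adjusted p = 4.13e-07) and in Doxy/Ctl (1.17, adjusted p = 6.73e-05), and NDRG2 fell in DoxyNaB/NaB (−0.40, adjusted p = 0.00963). By the methods' t-test after adjustment 0 of these 13 genes passed in DoxyNaB/NaB or in Doxy/Ctl.

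**Figure D4:**
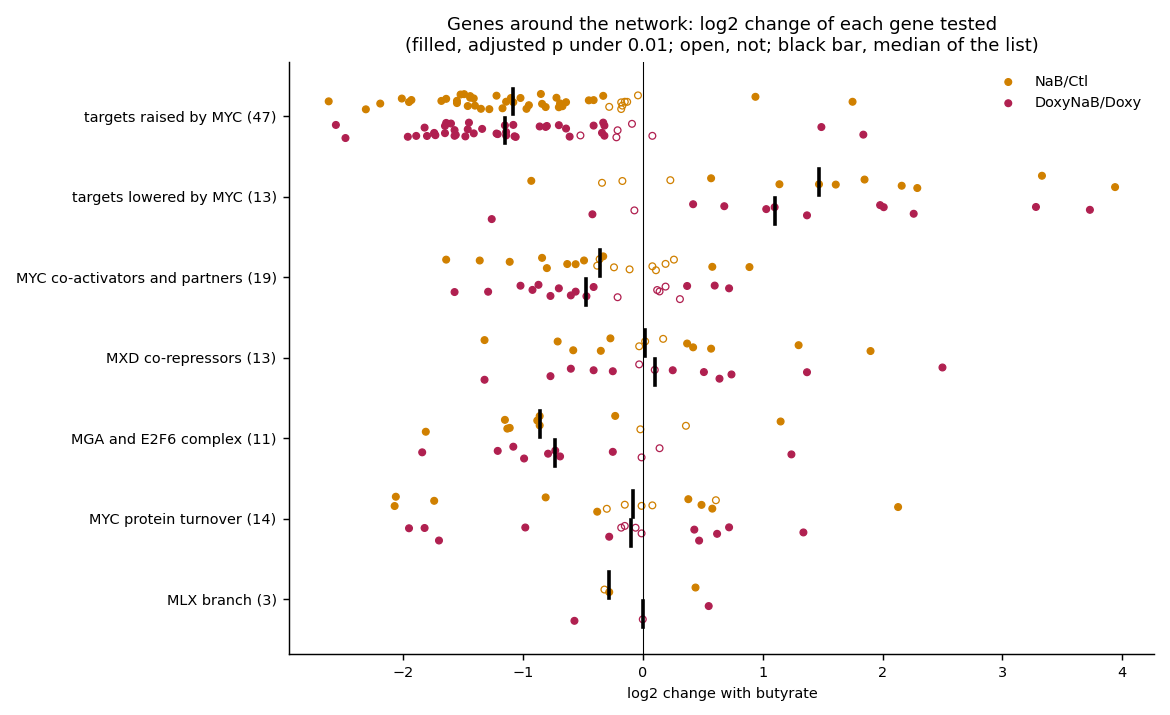
Butyrate differences of the genes around the network, by list. Each point is 1 gene by its probe of highest mean level, filled at an adjusted p under 0.01 and open otherwise, the horizontal axis is the log2 difference in NaB/Ctl or DoxyNaB/Doxy, and the black bar is the median of the list. Genes known to be raised by MYC have medians of −1.08 and −1.15, and those known to be lowered by MYC 1.47 and 1.10. The lists were chosen with earlier results of these data known.

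Co-activators and partners of MYC fell more often than they rose. Of 19 tested, 2 rose and 9 fell in NaB/Ctl (median −0.36) and 3 rose and 11 fell in DoxyNaB/Doxy (median −0.47). SMARCB1, a SWI/SNF subunit, fell (−1.64 and −1.57), as did the histone acetyltransferases KAT2A (−1.36 and −1.29) and KAT5 (−1.11 and −1.02). ZBTB17, the MYC partner Miz-1, rose by 0.58 and 0.60, and MYCBP2 by 0.89 and 0.72. The medians stayed below 0 under the 4 other scalings.

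The co-repressors used by the MXD proteins were split, with 5 rising and 5 falling of 13 in NaB/Ctl and 6 and 5 in DoxyNaB/Doxy, and median scaling turned this to 1 and 7 and to 2 and 5. ING1, a reader of histone methylation in the SIN3 complex, rose by 1.90 and 2.50, and SAP18, another part of it, by 1.30 and 1.37. RBBP4, a histone-binding subunit, fell (−1.32 in both). ING1 was the only gene of these lists to pass the interaction by limma, at −0.60 (adjusted p = 0.00853), and it was 0.47 higher in DoxyNaB than in NaB (adjusted p = 0.00229). By the methods' t-test after adjustment 0 of the 13 co-repressors passed in the interaction or in DoxyNaB/NaB.

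Of 11 genes of the complex around MGA and E2F6, 1 rose and 8 fell in both butyrate comparisons, with medians of −0.86 and −0.73. PCGF6, a Polycomb ring finger protein, fell (−1.81 and −1.84), and so did TFDP1, an E2F partner (−1.15 and −1.08), and CBX3, a heterochromatin protein (−1.13 and −1.21). RYBP, a Polycomb subunit, rose by 1.15 and 1.24. Under the 4 other scalings 7 to 9 of the 11 fell in each comparison.

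Genes for the turnover of MYC protein moved in both directions, with 4 rising and 5 falling of 14 in NaB/Ctl and 5 and 5 in DoxyNaB/Doxy, and with median scaling 1 and 8 and then 1 and 5. FBXO32, an F-box protein, rose by 2.13 and 1.34. SKP2, also an F-box protein, fell (−1.74 and −1.70), and so did the mitotic kinases AURKA (−2.07 and −1.82) and PLK1 (−2.06 and −1.95). In the related MLX branch, MLXIPL, the glucose-responsive factor ChREBP, rose by 0.44 and 0.55 (adjusted p = 0.000378 and 3.9e-05). MLX fell by 0.28 in NaB/Ctl (adjusted p = 0.000348) and MLXIP by 0.57 in DoxyNaB/Doxy (adjusted p = 0.000257). These MLX branch calls depended on the scaling, since in NaB/Ctl 0 of the 3 genes passed by limma with normexp or quantile normalization, and with median scaling 0 rose and 2 fell in NaB/Ctl and 0 rose and 1 fell in DoxyNaB/Doxy.

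The genes whose levels ran most like MYC over the 24 arrays were found by Pearson correlation after each experiment's mean was removed, among 18330 tested probes with a gene name. They were ZFP36L1, an RNA-binding protein that promotes mRNA decay (r = 0.998), TNS4, a tensin of focal adhesions (r = 0.99), the helicase DDX20 (r = 0.986), the ribosome assembly protein RCL1 (r = 0.982) and PHF17 (r = 0.981). ZFP36L1 differed by −0.87 in NaB/Ctl and −2.39 in DoxyNaB/Doxy, by −1.38 in DoxyNaB/NaB and by 0.13 in Doxy/Ctl. TNS4 differed by −0.74, −1.75, −1.01 and 0.0 in the same order. Among the members, r with MYC was 0.828 for MNT A_23_P341443, 0.813 for MXD3, −0.836 for MXD1 A_24_P379750 and −0.878 for MXD4 A_24_P234732, and for the 3 MAX probes it ran from −0.763 to 0.0921. All these points share the same arrays and the same 4 treatments, and r is given as a description of the shape only.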

How the data were processed

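RNA of 24 cultures was hybridised to one-colour Agilent 4x44K arrays. Per the labels and the study's methods, RNA was purified with Ribopure, and the 6 experiments are biological replicates. The deposited intensity values are Agilent Feature Extraction output (version 9.5.3.1 per the file headers), background-subtracted and spatially detrended, with a surrogate for values near the negative controls, and not scaled between arrays. Here gProcessedSignal of spots that are no controls and carry no outlier mark was taken as log2 minus log2 of the array's 75th percentile over such spots, and spots of a probe were averaged. Of 34127 probes, 18966 were tested, those that some treatment had well above background on each of its 6 arrays. For 635 of them an array is missing because its spots were marked.

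limma 3.58.1 (R 4.3.3) was fitted to all 24 arrays with the treatment and the experiment as a block, which follows the paired test of the methods. Passing means a Benjamini-Hochberg adjusted p under 0.01 over all tested probes, and a fold over 2 was counted beside it. The script was tested on simulated data. The experiment number in the labels gives the pairing, and 35 of 36 pairs of arrays of 1 experiment deviated together (r above 0.1, range −0.224 to 0.853). No 2 arrays were copies (highest r 0.988). The number of arrays limits the precision.

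Named were all probes of the 10 members. From each gene list, the 3 genes with the largest change in each direction among those passing were eligible, and all that passed the interaction. The likeness rule took the 5 genes with the highest r with MYC. The members and lists were chosen with earlier results of these data known. Alternatives were normexp background correction with an offset of 50, quantile and median scaling, the filter, the block, slide and scan, 1 probe a gene, the methods' t-test and leaving out each experiment. The 75th percentile over probes, and leaving out 2 butyrate arrays with the highest negative controls, were added after seeing the data. Probe positions are those of the files (NCBI36), and promoter sequences are from RefSeq on GRCh38. Tables and figures were made with Python 3.11.15, pandas 2.3.3, numpy 2.4.6 and matplotlib 3.10.9.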

Additional observations from a re-analysis of the deposited data

Results flagged for a closer look

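In 15 of 144 sets of 6 values, 1 experiment lay far from the other 5 by Dixon's test at 95%, and chance marks about 1 set in 20. Experiment 1, whose butyrate arrays lay on another slide than the rest, was the distant sample for MXI1 A_23_P161399 in Ctl (−0.29, others 0.08 to 0.30), MXI1 A_33_P3263902 in Ctl (−4.15, others −2.75 to −2.20), MAX A_23_P151662 in Ctl (−0.98, others 0.07 to 0.66) and NaB (0.76, others 1.48 to 1.70), MNT A_23_P341443 in Doxy (1.30, others 0.73 to 0.91) and MXD3 in Doxy (2.31, others 1.56 to 1.77).

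Experiment 2, whose DoxyNaB array had the highest negative controls (mean net signal 248.926, against 48.3789 on the lowest array), was the distant sample for MXD1 A_24_P379750 in DoxyNaB (−1.18, others −0.32 to −0.01), MXI1 A_23_P161399 in DoxyNaB (0.05, others 0.44 to 0.66), and MGA in DoxyNaB (0.51, others 0.88 to 1.03), NaB (1.10, others 0.87 to 0.94) and their difference (−0.60, others −0.06 to 0.12). It was so too for the DoxyNaB/Doxy difference of MYCL1 (−0.28, others 0.11 to 0.27), the MXD3 interaction (0.44, others −0.19 to 0.02) and the Doxy/Ctl difference of MXI1 A_33_P3383029 (−0.34, others 0.18 to 0.49). In experiment 4 the NaB/Ctl difference of MXD4 A_23_P423695, well above background on 2 of 6 Ctl arrays, was 5.10 (others 2.39 to 3.26). The part of slide, scan and negative controls in these values was not tested. Among the experiment 1 values, only that of MAX A_23_P151662 in NaB came from the slide of the butyrate arrays. Neither MGA in NaB nor the Doxy/Ctl difference of MXI1 A_33_P3383029 uses the DoxyNaB array of experiment 2.

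The butyrate differences of MYC and MNT A_23_P341443 differed between cells without and with doxycycline by the interaction term, by 1.6 (limma adjusted p = 2.13e-08) and 0.58 (adjusted p = 0.00383).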

How the results depend on the processing

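In NaB/Ctl 12 member probes passed, 5 with a fold over 2 and 7 within scan 3 (experiments 2 to 4). In DoxyNaB/Doxy 9 passed, 5 with a fold over 2. In DoxyNaB/NaB 1 passed, 2 with 1 probe a gene, with an adjusted p under 0.05, with the filter on all 24 arrays and with quantile normalization, and 0 by limma within scan 4 (experiments 5 and 6). In Doxy/Ctl 0 passed by limma, and 2 by the methods' t-test without adjustment, for which no share over all tested probes was taken. In the interaction 2 passed, 1 with the percentile over probes, a fold over 2, no filter, normexp and scan 3, and 0 by limma with median scaling, by the adjusted methods' t-test and by limma within scan 4. Leaving out 1 experiment gave 10 to 12, 8 to 9, 1 to 2, 0 to 0 and 1 to 2 in the same order. Without the experiment as a block (the replicate block) 9, 6, 1, 0 and 1 passed. No share of all tested probes was taken for scan, block, filter or left-out experiments, so those counts have no background here. With median scaling NaB/Ctl differences changed sign, to −0.39 for MXI1 A_23_P161399 and A_33_P3383029, −0.73 for MNT A_23_P341443, −0.41 for MGA, −0.19 for MYCL1 and −0.14 for MNT A_33_P3246733, a scaling that moved the median of all tested probes to −0.58. Differences that did not pass also changed sign elsewhere, such as MNT A_33_P3246733 to −0.47 within scan 4 and MXI1 A_33_P3263902 from −0.05 to 0.15 within scan 3. The cause of these changes was not tested. Probes near background (MXD1 A_23_P408094, MXD4 A_23_P423695) set the limit of what can be read.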
